A study of Mus musculus with 9 samples.

Results

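The p53 target genes described here are 32 genes, namely Trp53, which encodes p53 itself, and 31 genes known as targets of p53 in cell cycle arrest, apoptosis, DNA repair and metabolism. They were taken by name from the 22068 genes of the count table, by a rule that holds no measured value. The members were, however, chosen with earlier results of these data known, and all 32 were found in the table. Their transcripts were counted by RNA-seq in 9 libraries of mouse embryonic fibroblasts (MEFs), 3 libraries in each of 3 groups. All groups were C57Bl/6 MEFs at passage 2 that were electroporated with a plasmid carrying a puromycin resistance gene and kept in puromycin for 5 days. The labels place a recovery of 48 h after the drug, and the study's methods place it between electroporation and the drug, with an overnight culture once the drug was washed off. The control plasmid held no homeobox gene, the eutherian CRX group received V5-tagged human CRX, and the metatherian CRX group received V5-tagged opossum CRX. CRX is a homeodomain transcription factor of photoreceptors, and the study asked how its orthologues act on the transcriptome when expressed outside their usual tissue. The control cells therefore shared the electroporation, the vector and the drug with both CRX groups, and what CRX does in retina or embryo was not measured in these fibroblasts. The labels do not say whether the libraries of a group came from separate cultures, so that p-values measure only the spread between these libraries, which may be technical.

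p53 is a transcription factor that is kept scarce in unstressed cells, because its target Mdm2, a ubiquitin ligase, sends it to the proteasome. Damaged DNA and other stresses release it from Mdm2, and it then switches on genes that stop the cell cycle, repair DNA or start apoptosis. Much of its regulation acts on the protein, so that the Trp53 transcript does not report p53 activity, whereas the transcripts of its targets are commonly used as a readout. Primary MEFs are a classical cell for this pathway, which limits their growth in culture.

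Depth was 54145701 to 94699657 counts per library. Reads counted at the mouse Crx gene numbered 313 to 995 in the eutherian CRX libraries, 0 to 4 in the metatherian CRX libraries and 0 in each control library, and the opossum transcript has no row of its own. Of 12 fibroblast markers all 12 had a mean above 2 FPKM (fragments per kilobase of exon, scaled to depth), with a sum of 9931 to 11194 FPKM per library in control, 5515 to 9741 with eutherian CRX and 6120 to 9889 with metatherian CRX. Epithelial and endothelial markers each had 1 gene of 6 above that level, and neural markers had 1 of 5. Macrophage markers had 3 of 10, and their sum was 11.2 to 36.7 FPKM in control, 7.06 to 20.5 with eutherian CRX and 3.76 to 10.7 with metatherian CRX. Smooth muscle markers, 4 of 5 above that level, summed to 1065 to 1845 FPKM in control, 164 to 801 with eutherian CRX and 264 to 548 with metatherian CRX. The libraries numbered 3 stood apart, most of all in the eutherian CRX group. Library 3 of that group differed from library 1 by more than 1.5-fold in 27.1% of the 10100 genes kept for testing and in 11 of the 31 p53 target genes kept, against 0.495% of all genes and 0 of these 31 between libraries 1 and 2. Several results below are therefore also given without library 3 of a CRX group.

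Levels of the p53 target genes spanned a wide range, with a median of 35.8 FPKM over the 32 genes and all 9 libraries. Ccng1, which encodes cyclin G1, was the most abundant at 398 FPKM, followed by Ephx1 (microsomal epoxide hydrolase) at 328 FPKM, Phlda3 (a repressor of the kinase AKT) at 208 FPKM and Mdm2 at 166 FPKM. In all, 8 members lay above 100 FPKM and 9 below 10 FPKM. Trp53 stood at 42.2 FPKM. Ddb2, a DNA damage recognition factor of nucleotide excision repair, was lowest at 0.658 FPKM, and it was the single member that the minimum of 2 FPKM in at least 1 group removed from the tests. All 32 passed edgeR's own filter on low counts. Gdf15, a secreted stress factor, met the minimum through the control group alone (2.70 FPKM, against 1.63 with eutherian and 1.19 with metatherian CRX), so that its kept status already favoured a lower value with CRX.

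**Figure D1:**
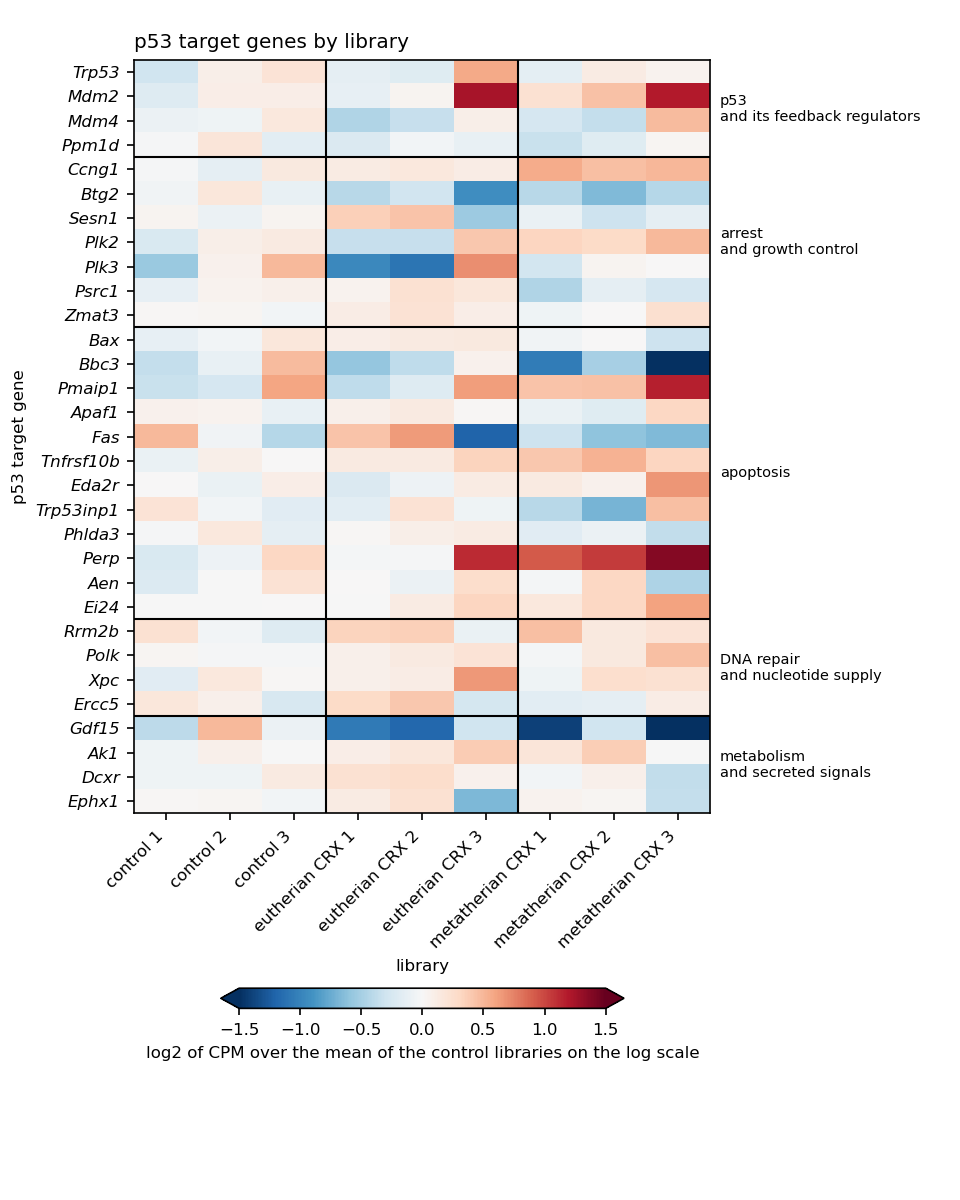
Heat map of the 31 p53 target genes kept, grouped by role, in each of the 9 libraries. The colour is the log2 of CPM (counts per library scaled to a common depth) over the mean of the control libraries on the log scale, red above and blue below it. Mdm2 and Perp are dark red in library 3 of both CRX groups, Perp and Ccng1 are red in all 3 metatherian CRX libraries, and Bbc3 and Gdf15 are blue in all 3.

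Upstream sequence was read to show which members carry the letters that p53 or CRX are known to bind. RefSeq windows of the build GRCm38.p6, each with 250 bases before and 50 after a transcription start, were at hand for 24 of the 32 genes (35 windows). The p53 half-site, a motif of 10 bases that reads the same on both strands, occurred in 9 of these 24 genes (37.5%), namely Aen, Bax, Ccng1, Ei24, Mdm2, Polk, Ppm1d, Sesn1 and Trp53. Over all 27025 genes with a window the share was 9.55%. A pair of half-sites within 13 bases of each other, as in a full p53 response element, occurred in 0 of the 24 genes and in 0.074% of all genes. The CRX core hexamer TAATCC, sought on both strands, occurred in Bax and Mdm4, or 8.33% of the 24 genes against 8.14% of all genes. These are matches of letters in a short window, not measured sites, and the best known response element of Mdm2 lies in its first intron, outside the window. The upstream stretches below are shown for the members with a half-site before the start whose values are given in full, with the half-site in capitals, and for Bax, which held both motifs. All 5 read in the direction of transcription, 5′ to 3′.
Mdm2: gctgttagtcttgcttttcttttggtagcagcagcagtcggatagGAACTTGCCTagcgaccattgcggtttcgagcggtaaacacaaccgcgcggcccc
Ccng1: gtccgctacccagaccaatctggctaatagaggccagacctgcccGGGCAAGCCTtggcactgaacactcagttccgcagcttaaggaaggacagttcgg
Ei24: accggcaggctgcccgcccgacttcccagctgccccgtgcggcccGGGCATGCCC
Trp53: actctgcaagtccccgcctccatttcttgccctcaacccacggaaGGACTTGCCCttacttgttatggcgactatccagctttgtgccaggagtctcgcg
Bax: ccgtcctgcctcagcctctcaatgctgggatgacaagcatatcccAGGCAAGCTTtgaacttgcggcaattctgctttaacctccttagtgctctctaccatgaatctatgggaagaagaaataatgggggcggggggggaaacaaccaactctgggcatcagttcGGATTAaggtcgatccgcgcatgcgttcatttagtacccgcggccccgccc
The Mdm2 stretch lies at chr10:117710890-117710989 (minus strand), with its half-site from 186 to 177 bases before the start. That of Ccng1 lies at chr11:40755417-40755516 (minus strand), with the half-site from 185 to 176 bases before the start. In Ei24, at chr9:36797335-36797389 (minus strand), the half-site ends 1 base before the RefSeq start, from which all these distances are counted. The Trp53 stretch lies at chr11:69580239-69580338 (plus strand), with the half-site from 75 to 66 bases before the start. In Bax, at chr7:45466928-45467144 (minus strand), the first run of capitals is the half-site, which begins 201 bases before the start, and the second is the CRX core hexamer on the opposite strand, which begins 80 bases before it.

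The first question was whether the p53 target genes moved as a group with either CRX. No member passed an adjusted p of 0.05 (edgeR's quasi-likelihood test, Benjamini-Hochberg over 10100 genes) in any of the 3 comparisons. Over all genes the same rule called 0.0297% for metatherian CRX against control, 0.604% for eutherian CRX against control and 0% for metatherian against eutherian CRX, or 3, 61 and 0 genes. With DESeq2 in place of edgeR, 5, 0 and 4 members passed (9.94%, 3.3% and 3.14% of all genes), and with limma voom and library quality weights 21, 10 and 21 did (46.2%, 16.8% and 48.3%). The median log2 fold change of the 31 members was -0.04 for metatherian CRX, 0.09 for eutherian CRX and -0.04 between the orthologues, against -0.01, 0.00 and -0.01 over all genes. In bulk RNA, fewer cells with a transcript and less of it per cell cannot be told apart.

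At an unadjusted p under 0.05, 7 of the 31 members (22.6%) were higher with metatherian CRX than in control, against 9.04% of all genes. They were Ccng1, Eda2r, Ei24, Mdm2, Perp, Pmaip1 and Tnfrsf10b, of which 5 belong to the apoptosis group. That group holds 12 of the 31 members, and its median log2 fold change was -0.0087, with 6 above and 6 below 0. Of the 31 members, a further 4 (12.9%) were lower than in control, namely Bbc3, Btg2, Gdf15 and Psrc1, against 10.5% of all genes. Gdf15 was kept through the control group alone, as stated above, which favoured its place among these 4. These counts rest on a fit with the replicate number as a block. Without the block 4 members were higher and 3 lower, as Eda2r, Mdm2, Pmaip1 and Gdf15 no longer passed, and 13% of all genes passed in either direction. By the ranges of the libraries, all 3 metatherian CRX values lay above all 3 control values in 6 members (19.4%), against 11% of all genes, and below them in 4 members (12.9%), against 12.3%. The lower 4 included Sesn1, a sestrin that restrains the growth kinase mTORC1, which is named for this count after its values were seen. With eutherian CRX 0 members were higher than control at that unadjusted p, against 2.23% of all genes, and 1 (Btg2) was lower, against 6.34%. The groups were apart upward in 4 members (12.9%), against 6.21% of all genes, and downward in Btg2 alone (3.23%), against 7.8%. The 4 were Tnfrsf10b and, named after their values were seen, Ak1, Polk and Zmat3. Between the orthologues, 5 members (Ccng1, Eda2r, Perp, Plk2 and Pmaip1, 16.1%) were higher with metatherian CRX at an unadjusted p under 0.05, against 7.41% of all genes, and 2 (Phlda3 and Psrc1, 6.45%) were lower, against 4.13%. Without the block the former were 1 (Ccng1) and the latter were the same pair, with 6.4% of all genes passing in either direction. Ccng1 alone (3.23%) was apart upward, against 6.23% of all genes, and 3 members (Bax, Phlda3 and Psrc1, 9.68%) were apart downward, against 5.3%. Bax is named here after its values were seen. The comparisons with control share the same 3 control libraries and are not independent of each other.

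**Figure D2:**
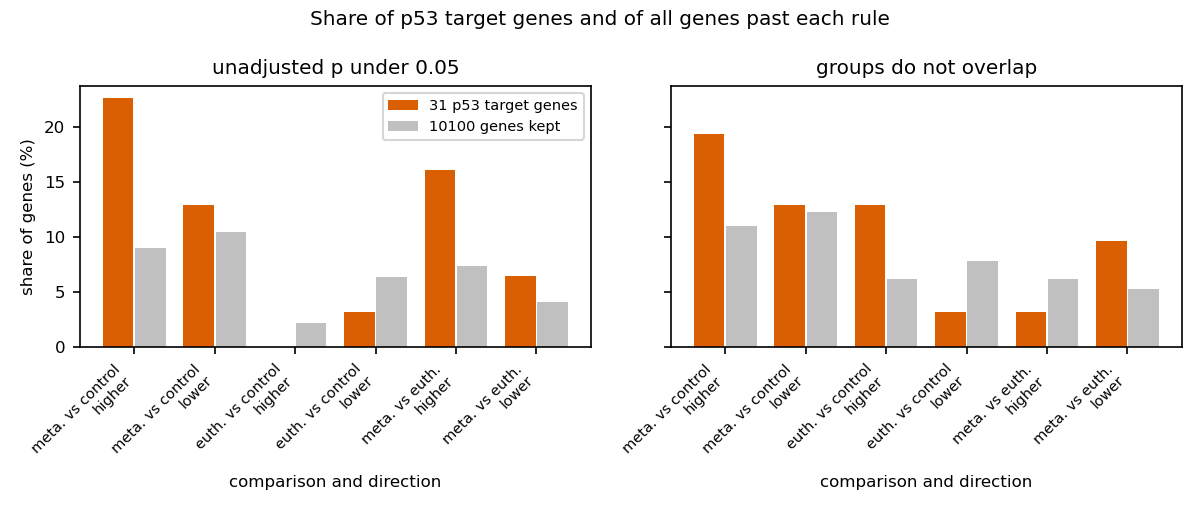
Bars give the share in percent of the 31 p53 target genes kept (orange) and of all 10100 genes (grey) that passed an unadjusted p under 0.05 (left) or had groups that did not overlap (right), by comparison and direction. The tallest orange bar is the 22.6% of members higher with metatherian CRX than in control, beside 9.04% of all genes.

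Among p53 and its feedback regulators, Trp53 (chr11:69580359-69591873 in the mm10 table, plus strand) did not differ between groups beyond the spread of its libraries. Its libraries numbered 1 to 3 held 75.9, 99.0 and 108 CPM in control, 84.6, 82.1 and 138 CPM with eutherian CRX and 84.2, 101 and 96.4 CPM with metatherian CRX. All 3 groups overlapped, and the highest value was eutherian CRX library 3. On the log2 scale the change against control was 0.01 with metatherian CRX (95% confidence interval -0.37 to 0.39) and 0.09 with eutherian CRX (-0.28 to 0.47), and between the orthologues it was -0.08 (-0.46 to 0.30). Mdm2 (chr10:117688875-117710770, minus strand), whose upstream half-site is printed above, held 337, 414 and 414 CPM in control, 354, 399 and 913 CPM with eutherian CRX and 454, 526 and 879 CPM with metatherian CRX. All 3 metatherian CRX libraries lay above the control libraries, while with eutherian CRX library 3 alone did. The fitted log2 fold change against control was 0.59 with metatherian CRX (SE 0.23, adjusted p = 0.23, edgeR) and 0.38 with eutherian CRX (SE 0.23, adjusted p = 0.74, edgeR). Without control library 3 the former was 0.32 (adjusted p = 0.40, edgeR). Without eutherian CRX library 3 the latter was 0.12, and that between the orthologues, 0.22 with all libraries, was 0.50 (adjusted p = 0.24, edgeR), whereas without eutherian CRX library 1 or 2 it was 0.11 or 0.07. Without control library 3 the value with eutherian CRX was 0.08. Mdm4, the partner of Mdm2 that masks p53, and Ppm1d, the phosphatase that ends p53 signalling, had log2 fold changes between -0.24 and 0.19 in the 3 comparisons.

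Of the 7 genes of arrest and growth control, Ccng1 (chr11:40748552-40755315, minus strand), which encodes a cyclin that recruits a phosphatase to Mdm2, was the one member whose metatherian CRX libraries lay above those of both other groups. It held 1197, 1099.8 and 1339 CPM in control, 1311, 1351 and 1308 CPM with eutherian CRX and 1780.0, 1647 and 1700.4 CPM with metatherian CRX. They exceeded all 6 others, and library 3 was close to libraries 1 and 2 in both CRX groups. As a log2 fold change this was 0.50 against control (SE 0.12, adjusted p = 0.11, edgeR) and 0.37 against eutherian CRX (SE 0.12, adjusted p = 0.34, edgeR), each higher in 3 of 3 pairs of libraries with the same number. Without eutherian CRX library 3, the value against control was 0.51 at an adjusted p of 0.034 in edgeR. Without any other 1 library it did not pass, at adjusted p up to 0.47, nor did it without the replicate block (adjusted p = 0.21, edgeR). With eutherian CRX, Ccng1 differed from control by 0.13 (-0.15 to 0.41).

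Btg2 (chr1:134074865-134079155, minus strand), an antiproliferative gene that also responds to growth factors, was the one member of the 31 kept that lay below control with both orthologues. Its values were 127, 148 and 122 CPM in control, 98.7, 108 and 69.1 CPM with eutherian CRX and 98.9, 83.1 and 98.0 CPM with metatherian CRX. Every CRX library was below every control library. The log2 fold change was -0.53 with eutherian CRX (SE 0.17, adjusted p = 0.40, edgeR) and -0.49 with metatherian CRX (SE 0.17, adjusted p = 0.19, edgeR), and between the orthologues it was 0.04 (-0.35 to 0.44). Without metatherian CRX library 2 the value with metatherian CRX was -0.30 (adjusted p = 0.44, edgeR), and it no longer passed an unadjusted p of 0.05. That with eutherian CRX was -0.36 without eutherian CRX library 3, where it too no longer passed. Psrc1 (chr3:108383804-108388231, plus strand) encodes a protein of the mitotic spindle. It held 91.1, 103 and 105 CPM in control, 103, 116 and 112 CPM with eutherian CRX and 73.0, 90.7 and 83.2 CPM with metatherian CRX. The metatherian CRX libraries lay below all 6 others. On the log2 scale the change was -0.28 against control (SE 0.083, adjusted p = 0.15, edgeR) and -0.43 against eutherian CRX (SE 0.083, adjusted p = 0.28, edgeR), and eutherian CRX against control stood at 0.15 (-0.05 to 0.35).

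The polo-like kinases Plk2 and Plk3, which respond to stress, differed in level and spread. Plk2 (chr13:110395044-110400844, plus strand) held 244, 304 and 315 CPM in control, 226, 224 and 378 CPM with eutherian CRX and 357, 348 and 401 CPM with metatherian CRX. The metatherian CRX libraries lay above control, and eutherian CRX library 3 lay among them. The fitted log2 fold change was 0.36 against control (SE 0.16, adjusted p = 0.27, edgeR) and 0.45 against eutherian CRX (SE 0.16, adjusted p = 0.36, edgeR). Without eutherian CRX library 3 the difference between the orthologues was 0.65 at an adjusted p of 0.049 in edgeR, and without any other 1 library it did not pass, at adjusted p up to 0.999. Plk3 (chr4:117128655-117133952, minus strand) held 6.85, 10.5 and 14.1 CPM in control, 5.12, 4.69 and 16.3 CPM with eutherian CRX and 8.28, 10.3 and 10.1 CPM with metatherian CRX. Its groups overlapped, and the eutherian CRX group alone spanned the lowest and the highest value. As a log2 fold change, eutherian CRX against control gave -0.40 (-1.20 to 0.41), -0.89 without eutherian CRX library 3 (adjusted p = 0.34, edgeR), -0.24 without control library 2 and -0.06 without eutherian CRX library 2 (adjusted p = 0.97, edgeR). Sesn1 and Zmat3, an RNA-binding protein of the p53 response, had log2 fold changes between -0.29 and 0.14. Sesn1 held 22.8 and 23.9 CPM in eutherian CRX libraries 1 and 2 and 12.3 CPM in library 3. Its change with eutherian CRX against control ranged from -0.12 to 0.42 over the alternative runs.

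**Figure D3:**
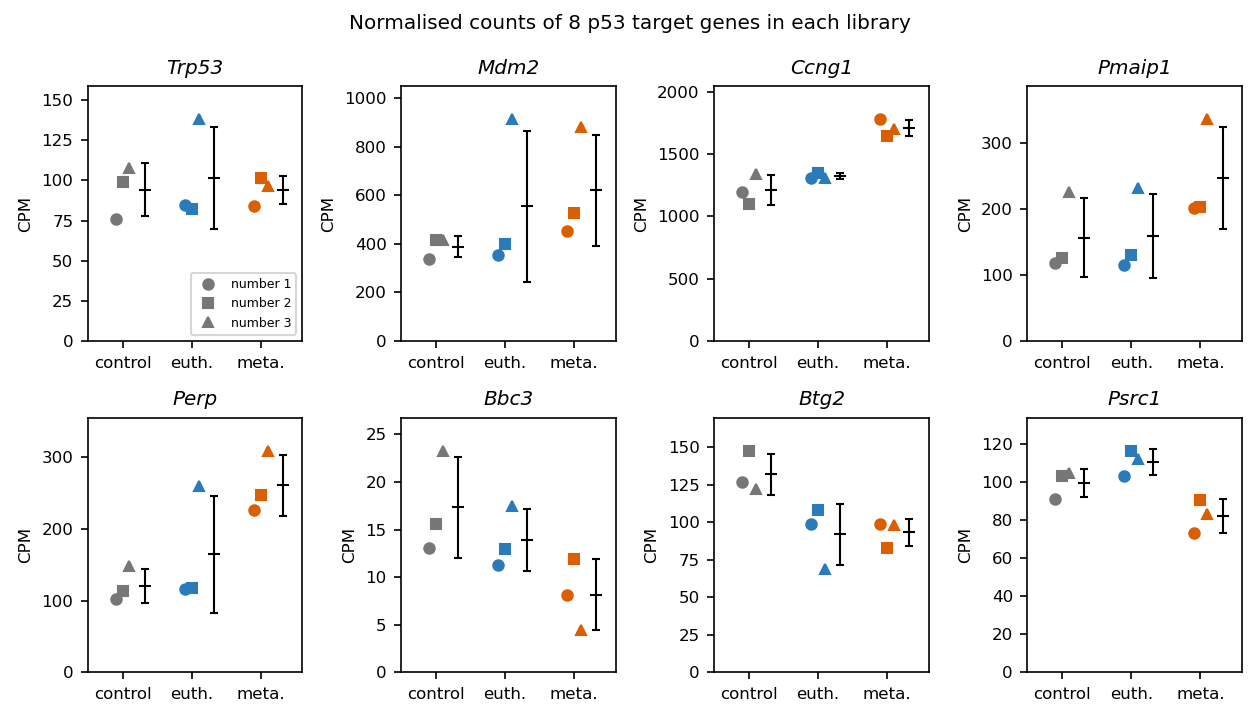
CPM of 8 p53 target genes in each library of control (grey), eutherian CRX (blue) and metatherian CRX (orange), from 0. Circles, squares and triangles are libraries 1, 2 and 3, and the black bar is the mean ± SD of the 3 libraries. In Mdm2 and Perp the eutherian CRX triangle lies far above libraries 1 and 2 (913 and 259 CPM), whereas in Ccng1 the metatherian CRX libraries lie together above all others.

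The apoptosis group held the highest log2 fold change of the members, that of Perp (chr10:18845071-18857073, plus strand). It encodes a tetraspan membrane protein of cell adhesion that p53 induces in apoptosis. Perp held 102, 113 and 148 CPM in control, 117, 118 and 259 CPM with eutherian CRX and 226, 246 and 309 CPM with metatherian CRX. All metatherian CRX libraries lay above control, and with eutherian CRX library 3 alone did. Means were 121 ± 23.8 CPM in control and 260.4 ± 43.1 CPM with metatherian CRX (SD, n = 3), a log2 fold change of 1.12 (SE 0.18, adjusted p = 0.072, edgeR), the highest of the 31 members. Without eutherian CRX library 3 it was 1.12 at an adjusted p of 0.0047 in edgeR, and without metatherian CRX library 3 it was 1.25 at 0.028. Without any other 1 library it did not pass, at adjusted p up to 0.39 and log2 fold changes of 1.02 to 1.19, nor did it without the replicate block (adjusted p = 0.23, edgeR). Against eutherian CRX it was 0.75 (SE 0.18, adjusted p = 0.28, edgeR), and 1.00 (adjusted p = 0.016, edgeR) without eutherian CRX library 3, the one library whose removal gave a call there. Eutherian CRX against control gave 0.37 (-0.04 to 0.79), and 0.12 without its library 3.

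Pmaip1 and Bbc3 are BH3-only genes, whose proteins disable the guardians of the BCL2 family. Pmaip1 encodes NOXA and held 119, 126 and 226 CPM in control, 115, 131 and 232 CPM with eutherian CRX and 202, 204 and 337 CPM with metatherian CRX. Library 3 was the highest in every group, so that the groups overlapped although each metatherian CRX library exceeded the library of the same number in both other groups. The log2 fold change was 0.68 against control (SE 0.095, adjusted p = 0.072, edgeR) and 0.66 against eutherian CRX (SE 0.095, adjusted p = 0.24, edgeR), while eutherian CRX against control gave 0.02 (-0.21 to 0.24). Without eutherian CRX library 3 the first was 0.69 at an adjusted p of 0.011 and the second 0.70 at 0.028, and without metatherian CRX library 3 they were 0.74 at 0.024 and 0.72 at 0.033 (edgeR). Without any other 1 library neither passed, with adjusted p up to 0.39 for the first and 0.999 for the second, nor did either without the replicate block (adjusted p = 0.47 and 0.80, edgeR). Bbc3 (chr7:16308321-16318334, plus strand), which encodes PUMA, held 13.1, 15.6 and 23.3 CPM in control, 11.3, 12.95 and 17.5 CPM with eutherian CRX and 8.13, 12.0 and 4.43 CPM with metatherian CRX. The metatherian CRX libraries lay below control, and library 3, the highest in both other groups, was here the lowest. On the log2 scale the change was -1.07 against control (SE 0.39, adjusted p = 0.21, edgeR), and -0.56 (adjusted p = 0.075, edgeR) without metatherian CRX library 3. With eutherian CRX it was -0.31 (-1.20 to 0.58), and -0.56 to 0.06 with 1 library left out.

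Bax (chr7:45461695-45466903, minus strand), the effector that permeabilises mitochondria, held 132, 139.7 and 161 CPM in control, 153, 158 and 159 CPM with eutherian CRX and 139, 144 and 116 CPM with metatherian CRX. The metatherian CRX values lay below those with eutherian CRX and overlapped control, with library 3 the lowest of all 9. The fitted log2 fold change was 0.12 with eutherian CRX (-0.18 to 0.42) and -0.12 with metatherian CRX (-0.42 to 0.18), and between the orthologues it was -0.24 (adjusted p = 0.52, edgeR). Without metatherian CRX library 3 the value against control was 0.02 and that between the orthologues -0.10 (adjusted p = 0.91 and 0.57, edgeR).

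Among the death receptors, Tnfrsf10b (chr14:69767472-69784411, plus strand), the mouse TRAIL receptor, held 113, 128 and 121 CPM in control, 132, 132 and 152 CPM with eutherian CRX and 159, 173 and 151 CPM with metatherian CRX. Every CRX library lay above every control library, with the CRX groups overlapping. As a log2 fold change against control it was 0.42 with metatherian CRX (SE 0.11, adjusted p = 0.12, edgeR) and 0.21 with eutherian CRX (SE 0.11, adjusted p = 0.68, edgeR), the latter 0.12 without eutherian CRX library 3. Without eutherian CRX library 3 the former was 0.43 at an adjusted p of 0.035, and without metatherian CRX library 3 it was 0.50 at 0.048 (edgeR). Without any other 1 library the former did not pass, at adjusted p up to 0.47, nor did it without the replicate block (adjusted p = 0.20, edgeR). Fas (chr19:34290659-34327775, plus strand), the receptor of FAS ligand, held 78.6, 54.1 and 41.6 CPM in control, 75.7, 87.4 and 24.5 CPM with eutherian CRX and 45.1, 36.9 and 35.3 CPM with metatherian CRX. Its groups overlapped, and library 3 was the lowest of each group. The log2 fold change with metatherian CRX was -0.51 (-1.26 to 0.24) against control and -0.53 (-1.29 to 0.24) against eutherian CRX, and without eutherian CRX library 3 the latter was -0.93 (adjusted p = 0.070, edgeR). Without metatherian CRX library 3 they were -0.87 and -0.84 (adjusted p = 0.16 and 0.20, edgeR). Without metatherian CRX library 2 they were -0.31 and -0.30, and without eutherian CRX library 2 the latter was -0.13 (adjusted p = 0.90, edgeR). Eda2r (chrX:97333837-97377218, minus strand), the receptor of ectodysplasin A2, held 114, 106 and 122 CPM in control, 98.3, 108 and 124 CPM with eutherian CRX and 125, 119 and 179.6 CPM with metatherian CRX. Metatherian CRX library 3 was far above the rest and library 2 lay within the control range. On the log2 scale the change was 0.29 against control (SE 0.12, adjusted p = 0.24, edgeR) and 0.34 against eutherian CRX (SE 0.12, adjusted p = 0.36, edgeR). Without metatherian CRX library 3 these were 0.17 and 0.22 (adjusted p = 0.31 and 0.26, edgeR), and neither passed an unadjusted p of 0.05.

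Ei24 (chr9:36779153-36797393, minus strand) encodes a membrane protein of the endoplasmic reticulum, and its half-site ends next to the RefSeq start, which lies inside the span of the gene in the count table. It held 203, 204 and 206 CPM in control, 205, 223 and 257 CPM with eutherian CRX and 229, 253 and 309.9 CPM with metatherian CRX. Control libraries were nearly equal, and all metatherian CRX libraries lay above them. The fitted log2 fold change was 0.35 with metatherian CRX (SE 0.11, adjusted p = 0.16, edgeR) and 0.15 with eutherian CRX (-0.11 to 0.41). Over the 20 alternative runs these ranged from 0.24 to 0.45 and from 0.050 to 0.23. Phlda3 (chr1:135766085-135769134, plus strand) held 313, 353 and 287 CPM in control, 320.1, 336 and 344 CPM with eutherian CRX and 281, 298 and 245 CPM with metatherian CRX. The metatherian CRX libraries lay below all eutherian CRX libraries and overlapped control. As a log2 fold change this was -0.29 between the orthologues (SE 0.11, adjusted p = 0.40, edgeR), or -0.18 without eutherian CRX library 3, and -0.21 against control (-0.47 to 0.05). Trp53inp1, a stress protein of the nucleus and of autophagy, held 234 and 193 CPM in metatherian CRX libraries 1 and 2 and 428 CPM in library 3, against 277 to 361 CPM in control. Apaf1, the scaffold of the apoptosome, and Aen, an apoptosis-enhancing nuclease, had log2 fold changes between -0.10 and 0.08.

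In the DNA repair group, 4 members were tested, namely Rrm2b (the p53-inducible subunit of ribonucleotide reductase), Polk (a translesion polymerase), Xpc (a damage sensor) and Ercc5 (a nuclease of excision repair). Their median log2 fold change against control was 0.16 with metatherian and 0.18 with eutherian CRX, and 0 of the 4 passed an unadjusted p of 0.05 in any comparison. Xpc (chr6:91489305-91515888, minus strand) held 20.7, 26.1 and 23.7 CPM in control, 24.7, 25.3 and 36.8 CPM with eutherian CRX and 22.4, 27.8 and 27.4 CPM with metatherian CRX. Its groups overlapped, with eutherian CRX library 3 the highest. The log2 fold change with eutherian CRX was 0.29 (-0.06 to 0.63), 0.13 without that library (adjusted p = 0.86, edgeR), 0.18 without control library 3 and 0.44 without eutherian CRX library 2 (adjusted p = 0.40, edgeR). Ddb2 (chr2:91211579-91237132, minus strand), tested in a fit with edgeR's filter alone, held 1.80, 1.80 and 1.62 CPM in control, 0.882, 1.54 and 1.00 CPM with eutherian CRX and 1.06, 1.14 and 1.08 CPM with metatherian CRX. Every CRX library lay below every control library. On the log2 scale the change was -0.65 with metatherian CRX (SE 0.26, adjusted p = 0.22, edgeR) and -0.62 with eutherian CRX (SE 0.26, adjusted p = 0.51, edgeR).

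In the group of metabolism and secreted signals, Gdf15 (chr8:70629393-70632469, minus strand) held 2.91, 5.37 and 3.59 CPM in control, 1.84, 1.69 and 3.11 CPM with eutherian CRX and 1.45, 3.11 and 0.600 CPM with metatherian CRX. Its highest CRX values lay just above the lowest control value. Gdf15 was kept through the control group alone, so that lower values with CRX were favoured by the filter. The fitted log2 fold change was -1.27 with metatherian CRX (SE 0.53, adjusted p = 0.25, edgeR), the lowest of the 31 members, and -0.73 with eutherian CRX (-1.98 to 0.51). Without metatherian CRX library 3 the former was -0.74 (adjusted p = 0.27, edgeR), and without eutherian CRX library 3 the latter was -1.39 (adjusted p = 0.53, edgeR), against -0.26 without eutherian CRX library 2 (adjusted p = 0.90, edgeR). The enzymes Ak1 (adenylate kinase), Dcxr (a carbonyl reductase) and Ephx1 had log2 fold changes between -0.30 and 0.22. Ephx1 held 624 and 669.8 CPM in eutherian CRX libraries 1 and 2 and 359.8 CPM in library 3.

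The 14 members outside the rule for genes described in full had log2 fold changes from -0.19 (Trp53inp1) to 0.27 (Rrm2b) with metatherian CRX, from -0.24 (Mdm4) to 0.22 (Ak1) with eutherian CRX and from -0.30 (Dcxr) to 0.19 (Mdm4) between the orthologues. Their 95% confidence intervals lay within 1 log2 unit of 0 in all 14 in each comparison. Of all 31 members that held in 26 for metatherian CRX, 28 for eutherian CRX and 26 between the orthologues, and the median width of the interval was 0.69 log2 units in each.

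**Figure D4:**
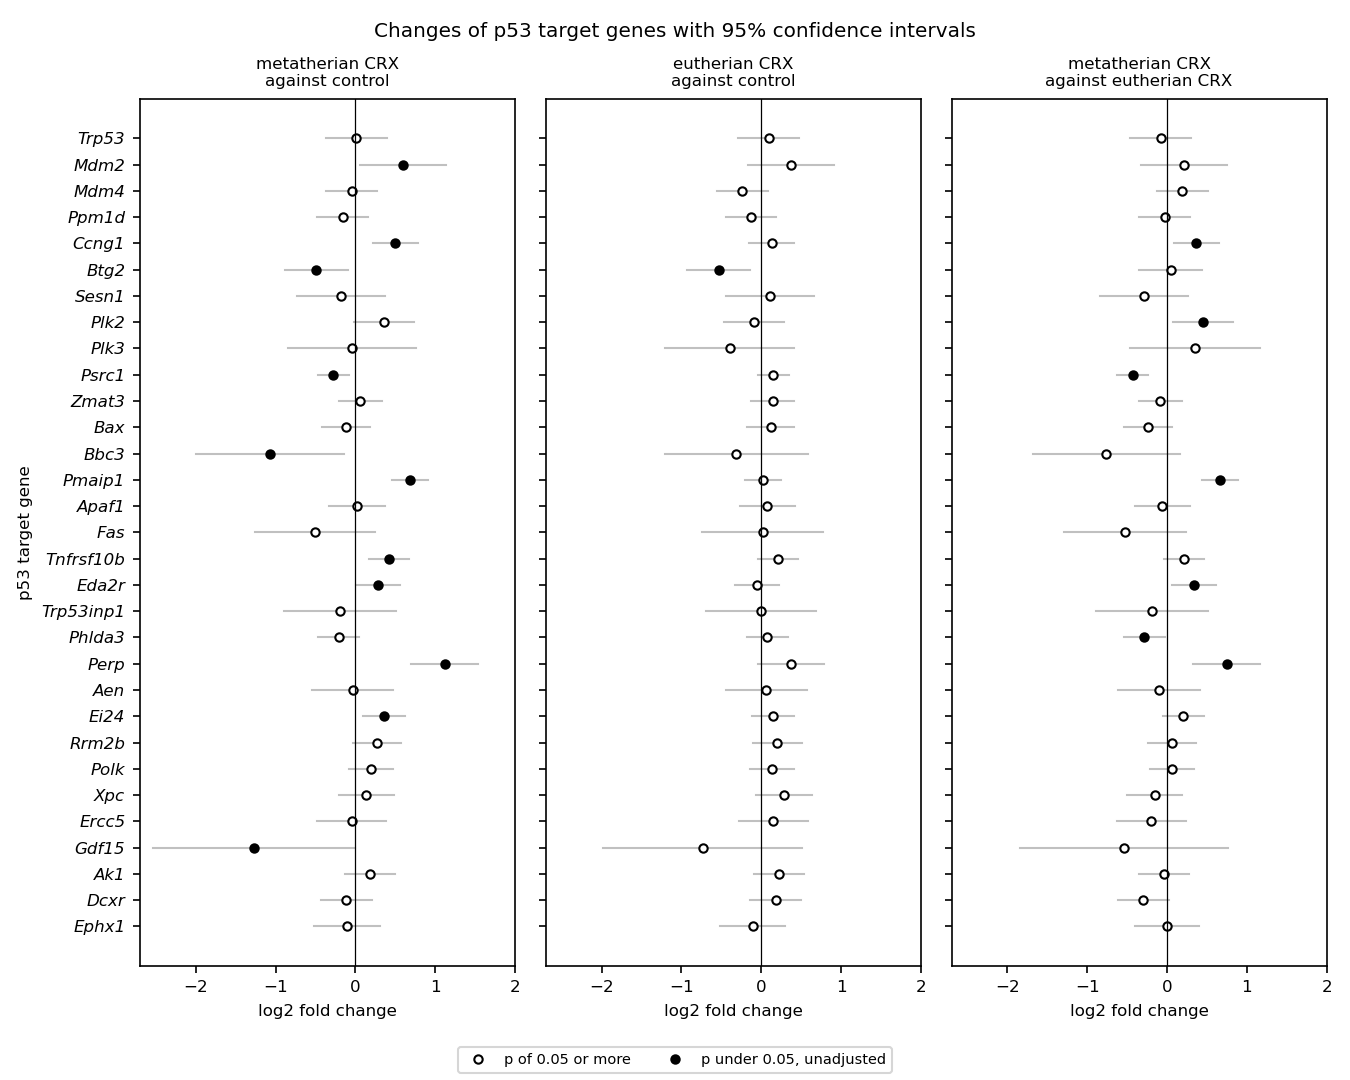
Log2 fold change of the 31 p53 target genes kept in the 3 comparisons, with 95% confidence intervals (grey lines), in the order of the roles. Filled circles passed an unadjusted p of 0.05, 11 with metatherian CRX against control, 1 with eutherian CRX against control and 7 between the orthologues, and 0 passed an adjusted p of 0.05.

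Members also differed within groups, by library. Library 3 exceeded the mean of libraries 1 and 2 by more than 1.5-fold in 7 of 31 members with eutherian CRX (Trp53, Mdm2, Plk2, Plk3, Pmaip1, Perp and Gdf15), in 4 with metatherian CRX (Mdm2, Mdm4, Pmaip1 and Trp53inp1) and in 3 in control (Plk3, Bbc3 and Pmaip1). It lay below that mean by more than 1.5-fold in 4 members with eutherian CRX (Sesn1, Fas, Ercc5 and Ephx1), in 3 with metatherian CRX (Bbc3, Aen and Gdf15) and in 1 in control (Fas). Of all 10100 genes, 12.9%, 5.01% and 8.9% were that much higher in library 3 of the eutherian CRX, metatherian CRX and control groups, and 15.1%, 13.6% and 5.18% that much lower. Mdm2 in library 3 was 2.43 times that mean with eutherian CRX, 1.80 times with metatherian CRX and 1.10 times in control. Metatherian CRX library 3 held the highest value of all 9 libraries in 10 of the 32 members and the lowest in 6. In control library 1 these counts were 1 and 7. The same counts over all genes were not made.

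Other genes of the p53 pathway were read from 4 lists with 69 genes, of which 66 were found in the table and 60 were kept. At an adjusted p of 0.05, 0 of the 60 passed in any comparison (edgeR). At an unadjusted p under 0.05, 8 were higher and 4 lower with metatherian CRX than in control, against 9.04% and 10.5% of all genes. With eutherian CRX 0 were higher and 2 lower, against 2.23% and 6.34%, and between the orthologues 5 were higher and 3 lower, against 7.41% and 4.13%. Bcl2, among those higher with metatherian CRX, and Mdc1, among those lower with eutherian CRX, averaged 1.69 and 1.83 FPKM. They were thus kept through their higher groups alone, which favoured these directions. Without the replicate block, Bcl2 and Trp53i13 no longer passed with metatherian CRX against control, and Tgfa still did (unadjusted p = 0.23, 0.077 and 0.015, edgeR). By list, the counts higher with metatherian CRX than in control were 2 of 12 upstream kinases and sensors, 0 of 11 cofactors and relatives, 4 of 26 further targets and 2 of 11 genes of the apoptosis machinery. All 4 lower genes were further targets (Notch1, Rprm, Sesn2 and Trp53i13), so that this list held 4 higher and 4 lower. Cdkn1a, the p21 inhibitor of cyclin-dependent kinases and the best known arrest target of p53, held 875, 992 and 958 CPM in control, 819.9, 882 and 1147 CPM with eutherian CRX and 823, 949 and 1101 CPM with metatherian CRX. Its groups overlapped, and the log2 fold change against control was 0.01 with metatherian CRX (-0.28 to 0.30) and -0.0028 with eutherian CRX (-0.30 to 0.29).

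The further genes named had the largest log2 fold changes in these lists. Tgfa, an EGF receptor ligand, held 12.9, 11.1 and 6.32 CPM in control, 13.6, 13.7 and 23.7 CPM with eutherian CRX and 16.7, 22.9 and 18.9 CPM with metatherian CRX, all CRX libraries above control. Its log2 fold change was 0.94 with metatherian CRX (SE 0.35, adjusted p = 0.21, edgeR) and 0.75 with eutherian CRX (SE 0.35, adjusted p = 0.64, edgeR). Without control library 3 these were 0.58 and 0.33, and without eutherian CRX library 3 the latter was 0.32 (adjusted p = 0.85, edgeR). Trp53i13 held 10.8, 12.8 and 12.2 CPM in control, 12.8, 9.92 and 9.25 CPM with eutherian CRX and 8.81, 9.69 and 3.32 CPM with metatherian CRX, and its log2 fold change was -0.81 with metatherian CRX against control (adjusted p = 0.24, edgeR) and -0.63 against eutherian CRX (adjusted p = 0.51, edgeR). They were -0.41 and -0.24 without metatherian CRX library 3 (adjusted p = 0.25 and 0.51, edgeR), and without control library 3 the former was -0.53. Bcl2, the antiapoptotic guardian that BH3-only proteins bind, held 8.77, 8.59 and 15.2 CPM in control, 8.03, 7.85 and 21.3 CPM with eutherian CRX and 13.4, 13.4 and 21.3 CPM with metatherian CRX. Each metatherian CRX library exceeded the library of the same number in both other groups, library 3 only barely so against eutherian CRX, and the log2 fold change was 0.59 against control (adjusted p = 0.16, edgeR) and 0.49 against eutherian CRX (adjusted p = 0.39, edgeR). These were 0.59 and 0.73 without eutherian CRX library 3 (adjusted p = 0.031 and 0.046, edgeR), and neither passed without any other 1 library. Nor did either pass without the replicate block (adjusted p = 0.59 and 0.88, edgeR). Bcl2 averaged 1.69 FPKM over all 9 libraries, so it met the minimum of 2 FPKM through its higher groups alone. That favoured a higher value with metatherian CRX, its highest group. Sfn (14-3-3 sigma) ranged from 2.44 to 3.54 CPM in control, 2.66 to 8.01 CPM with eutherian CRX and 2.58 to 6.00 CPM with metatherian CRX, at a log2 fold change of 0.51 with eutherian CRX (-0.66 to 1.69), and -0.23 to 0.91 with 1 library left out.

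Proliferation markers moved with the groups in the same libraries. Of 14 such genes 13 were kept, and 12 were lower than control at an unadjusted p under 0.05 with each orthologue, with a median log2 fold change of -0.86 with metatherian and -0.94 with eutherian CRX. The shares of all genes lower at that p were 10.5% and 6.34%. With eutherian CRX 6 of the 13 were lower at an adjusted p under 0.05 (edgeR, against 0.604% of all genes), and with metatherian CRX 0 were. No gene of the 10100 passed for eutherian CRX without the replicate block, with only the 6 libraries compared, or with any 1 control or eutherian CRX library left out, so that all 6 calls were lost there. Between the orthologues 6 of the 13 were higher with metatherian CRX at an unadjusted p under 0.05, against 7.41% of all genes, with a median of 0.35. This was uneven over libraries, since the median of these 13 genes relative to control was -0.74, -1.10 and -0.33 in metatherian CRX libraries 1 to 3 and -0.92, -0.88 and -1.04 in the eutherian CRX libraries, so that metatherian CRX library 2 lay below all of the latter. The part of this difference, or of the lower fibroblast, smooth muscle and macrophage sums above, in the values of the p53 target genes was not tested.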

How the data were processed

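Poly-A RNA of 9 MEF libraries was sequenced as paired ends. Reads were aligned by the authors with STAR to mm10 (GRCm38), and the raw count per gene and library made with featureCounts was deposited without normalization or pooling of replicates. The annotation release and the strand option are not given in the sources used here, so that reads of a gene and of one that overlaps it on the other strand, as at Trp53, cannot be told apart. The members, roles and lists were chosen with earlier results of these data known.

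Counts were analysed with edgeR 4.0.16 in R 4.3.3. filterByExpr kept 14599 of 22068 genes, and a mean above 2 FPKM in at least 1 group, from the counts and the merged exon length, left 10100. TMM factors and the quasi-likelihood test (glmQLFit and glmQLFTest) were used on all 9 libraries in 1 fit with the replicate number as a block, since the study's text says that samples were prepared in pairs, and p-values were adjusted by Benjamini-Hochberg over the 10100 genes. The SE was taken from the fold change and the F statistic. CPM were computed from the counts of kept genes and the TMM factors. Counts of replicate libraries differed by more than sampling noise in every pair, and all were used as separate replicates. Genes named in full were Trp53, Mdm2, members with an unadjusted p under 0.05, the 3 highest and 3 lowest fold changes per comparison, and the most and least abundant member. Outside the members they were Cdkn1a and the 2 largest changes per comparison. Promoter windows were from RefSeq, with no window matched for 8 members. On simulated data DESeq2 made more false calls than edgeR or voom and recovered more of the smaller changes. The simulation held no replicate effect and no outlying libraries, so it does not rank the tests for these data. Alternatives were no block, 2 other scalings, DESeq2 1.42.0, limma 3.58.1 (voom with quality weights), 2 other filters, only the libraries compared, and libraries left out.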

Additional observations from a re-analysis of the deposited data

How the results depend on the processing

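Scaling by relative-log-expression factors or upper quartiles left each count of members past the threshold within 1.5 times its value, and moved the median of all genes by less than 0.1 on the log2 scale. The number of members at an adjusted p under 0.05 was 0 in each comparison with edgeR on all 9 libraries. For metatherian CRX against control it was 5 with DESeq2 (9.94% of all genes called), 21 with voom and library quality weights (46.2%) and 2 (Perp and Pmaip1) with only the 6 libraries compared (3.94%). It was 0 to 4 with 1 library left out, 4 without eutherian CRX library 3 (8.79%) and 3 without metatherian CRX library 3 (4.79%), and 10 without all libraries numbered 3 (22.3%). For eutherian CRX against control it was 10 with voom (16.8%), and 0 in every fit with libraries left out. Between the orthologues it was 4 with DESeq2 (3.14%), 21 with voom (48.3%), 0 to 3 with 1 library left out (3 without eutherian CRX library 3, 3.46%, and 1 without metatherian CRX library 3, 1.46%) and 12 without all libraries numbered 3 (22.6%).

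At an unadjusted p under 0.05, the counts of 11, 1 and 7 members became 22, 20 and 22 with voom (53.4%, 33.4% and 55.5% of all genes). With filterByExpr alone and with no filter that of eutherian CRX against control was 2, as Ddb2 joined (9.65% and 8.02% of all genes). With 1 library left out they ranged from 6 (without metatherian CRX library 1, 10.1% of all genes) to 14 (without metatherian CRX library 3, 25.7%), from 0 (without control library 2, 5.56%) to 4 (without eutherian CRX library 2, 10.4%, or metatherian CRX library 3, 13.6%) and from 3 (without eutherian CRX library 1, 4.31%) to 10 (without control library 3, 15.8%). Without all libraries numbered 1 they were 2, 0 and 1 (6.68%, 4.05% and 1.5% of all genes), without those numbered 2 they were 6, 1 and 5 (10.3%, 6.97% and 4.5%), and without those numbered 3 they were 19, 10 and 16 (36.3%, 16.4% and 37.2%).

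Without the replicate block, the unadjusted counts were 7 for metatherian CRX, 1 for eutherian CRX and 3 between the orthologues (13%, 6.09% and 6.4% of all genes). Deviations from the group mean correlated above 0.1 in 8 of 9 pairs of libraries with the same number (0.0034 to 0.75) and in 5 of 18 pairs with different numbers (up to 0.72), which does not establish that the numbers pair the libraries.

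No member that passed an unadjusted p of 0.05 in a comparison turned sign there under any alternative run. Others did, among them Bax with metatherian CRX and Pmaip1, Plk2, Eda2r and Fas with eutherian CRX against control, and Btg2 and Gdf15 between the orthologues. Trp53 turned sign in each comparison. For metatherian CRX against control the log2 fold change of Trp53, 0.01, became -0.0043 without the block, -0.012 with upper quartiles, -0.083 to 0.16 with 1 library left out and -0.056 without the libraries numbered 1. For eutherian CRX against control it was -0.092 to 0.27 with 1 library left out and -0.058 without the libraries numbered 3. Between the orthologues it was -0.26 to 0.11 with 1 library left out and 0.14 without the libraries numbered 3. The cause of these shifts was not tested. With 3 libraries a group, the median interval width of 0.69 log2 units limits what could be seen.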
